A study of Mus musculus with 8 samples.

Results

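CHD4 occupancy was examined at the mouse genes that encode integrin and laminin subunits. The members were all protein-coding autosomal genes whose symbol is Itga or Itgb followed by a digit or by d, e, l, m, v or x, or Lama, Lamb or Lamc followed by a digit, with Itgbl1 left out. The rule took 40 of 21887 protein-coding genes of the RefSeq table for GRCm38.p6, the assembly behind build mm10. These were 27 integrin genes, 11 laminin genes and 2 genes, Itgb1bp1 and Itgb3bp, that match by symbol but encode proteins that bind an integrin beta chain rather than a chain itself. No measured value entered the rule as written, but the members were chosen with earlier results of these data known. Itga9 is named in the rule itself.

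The atria came from mice with floxed Tbx5 alleles in both groups, injected on postnatal day 2 with an AAV9 vector and later dissected and flash frozen. The vector carried Cre in the TBX5 KO group and EGFP in the control group, in both cases under Nppa sequence, which is active in atrial cardiomyocytes, so other atrial cells were not the target of Cre. The labels name right and left atria and a mixed cell type, give no age at collection, and do not say whether a library came from 1 animal or several. There were 2 control and 2 TBX5 KO ChIP libraries, each with its own peak list, and 4 input libraries that were not analysed here on their own. Groups follow the titles. Their genotype and treatment fields state the opposite grouping, and the treatment text gives CHD4 as the gene that Cre deletes, so each direction below holds only if the titles are right. A peak list holds no value that checks the deletion.

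CHD4 is the helicase subunit of the NuRD complex, which remodels nucleosomes and removes acetyl groups from histones. Integrins are cell surface receptors made of an alpha and a beta chain, and they link the actin cytoskeleton to the matrix outside the cell. Laminins are trimers of an alpha, a beta and a gamma chain, and they form the sheet of the basement membrane that surrounds each cardiomyocyte and underlies the endothelium. In heart muscle, integrins with the beta1 chain and the dystroglycan complex are the main receptors that hold the cell to laminin.

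The promoters of the members show how different the stretches of DNA under CHD4 peaks were. Of the 40 members, 26 had 1 or more start sites in the RefSeq promoter table, 29 in all, each with a window of 250 bases before the start and 50 after it. A site, meaning peaks of the 4 lists merged where they overlapped by 1 bp or more, lay over 20 of the 29 windows (69.0%), against 59.4% of the 21263 windows of all genes. At 18 of the 29 (62.1%) that site was called in all 4 libraries, against 53.7% over all genes, and no window of a member lay under a control-only site, against 1.01% over all genes. A control-only site was one called in both control libraries and in neither TBX5 KO library. The 4 sequences below are the 250 bases before the start in RefSeq, build GRCm38.p6, 5′ to 3′ on the strand of the gene, with each CG dinucleotide in capitals. They were chosen to show a CG-rich and 2 CG-poor promoters under sites called in all 4 libraries, and 1 promoter whose site was called in a single TBX5 KO list.
Itgb1, chr8:128685404-128685653, plus strand, site in all 4 libraries: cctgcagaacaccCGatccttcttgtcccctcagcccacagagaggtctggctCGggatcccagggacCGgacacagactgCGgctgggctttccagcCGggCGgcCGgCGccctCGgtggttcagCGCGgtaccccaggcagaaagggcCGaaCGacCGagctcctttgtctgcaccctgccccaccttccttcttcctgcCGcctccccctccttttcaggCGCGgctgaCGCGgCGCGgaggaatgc
Lama2, chr10:27616943-27617192, minus strand, site in all 4 libraries: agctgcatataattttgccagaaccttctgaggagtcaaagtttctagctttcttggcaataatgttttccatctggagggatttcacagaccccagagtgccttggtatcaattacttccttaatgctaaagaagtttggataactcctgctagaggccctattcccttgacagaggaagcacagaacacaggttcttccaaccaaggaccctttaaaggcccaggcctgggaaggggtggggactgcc
Lamb2, chr9:108479612-108479861, plus strand, site in all 4 libraries: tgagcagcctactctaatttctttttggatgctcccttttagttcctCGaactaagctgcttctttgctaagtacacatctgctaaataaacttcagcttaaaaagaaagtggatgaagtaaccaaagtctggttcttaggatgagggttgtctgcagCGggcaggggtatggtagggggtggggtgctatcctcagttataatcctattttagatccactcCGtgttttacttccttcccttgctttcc
Itga2, chr13:114932101-114932350, minus strand, site in both control and 1 TBX5 KO library: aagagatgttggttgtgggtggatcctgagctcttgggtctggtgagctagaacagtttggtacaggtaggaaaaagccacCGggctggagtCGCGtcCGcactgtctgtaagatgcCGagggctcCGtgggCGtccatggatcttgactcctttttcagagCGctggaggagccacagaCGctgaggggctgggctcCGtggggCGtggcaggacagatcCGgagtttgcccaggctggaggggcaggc

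The stretch before Itgb1 holds 21 CG dinucleotides, that before Itga2 12, that before Lamb2 3 and that before Lama2 0. Over the members' full windows of 300 bases the median number of CG dinucleotides was 15.5 under sites called in all 4 libraries. It was 5 in windows with no site. Over all genes these medians were 22 and 3. The authors' fold of a peak, its pileup over the local background, was 16.5 and 12.7 over the Itgb1 window in the control lists and 8.05 and 9.38 in the TBX5 KO lists. Over the Lama2 window it was 4.74 and 4.08 in control, with 3.57 and 3.52 in TBX5 KO. Over the Lamb2 window it was 11.4 and 7.43 in control, with 6.59 and 5.65 in TBX5 KO. The site over the Itga2 window had folds of 3.69 and 3.02 in control, 2.15 in TBX5 KO replicate 2 and no peak in TBX5 KO replicate 1. The Itga10 window had the same pattern, with folds of 3.95 and 3.46 in control and 3.29 in TBX5 KO replicate 2.

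Motifs were searched on both strands of the 300-base windows by their letters. The T-box letters AGGTGTG were in 3.45% of the members' windows and 5.32% of all windows, and the GATA letters AGATAA in 6.9% and 9.65%. The TEAD letters GGAATG were in 10.3% and 13.6%, and the NKX2-5 letters CAAGTG in 13.8% and 13.1%. No motif is contained in another, and a match is a description of the window only. The Itga9 start of the table lies 104983 bp inside the gene with no site over it, while the lower end of the gene lay in a site called in all 4 libraries.

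The 2 control lists held 99924 and 91520 peaks and the TBX5 KO lists 61173 and 69557, so the TBX5 KO lists were shorter as a whole. The lists give no read totals. From the authors' values the pileup of the genome background was computed as 10.1 and 10.3 for control and 10.7 and 13.4 for TBX5 KO. CHD4 may be present at a site whose signal did not reach the caller's threshold, a q of 0.05. Whether depth or enrichment of the libraries sets any count below was not tested. In mixed atria, fewer cells with CHD4 at a site and less CHD4 per cell cannot be told apart. Marker genes of atrial cardiomyocytes (Nppa, Myl7, Sln, Myl4, Bmp10) had 31 sites in both control libraries, of which 16 (51.6%) were control-only, against 24.3% over all genes. Bmp10 held 9 of the 16 and Myl4 6. The counts at markers of other cells were 8 of 40 for endothelial, 2 of 30 for fibroblast, 1 of 9 for smooth muscle, 2 of 4 for leukocyte, 1 of 5 for epicardial, 0 of 6 for ventricular and 0 of 1 for Schwann and neural genes. Peaks measure no RNA, so the labelled tissue could not be checked by expression.

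Sites were assigned to a gene when they overlapped its body plus 10 kb on each side. The members held 570 of the 96605 sites at protein-coding genes and of 121267 sites in all. Both control libraries called 317 of the 570. The comparison addresses whether CHD4 occupancy in atria differs when TBX5 is deleted. Of these 317, 59 were control-only (18.6%, Wilson 95% interval 14.7% to 23.3%, which covers counting error only), 64 were also called in 1 TBX5 KO library and 194 (61.2%) in all 4. Over the sites of all protein-coding genes 24.3% were control-only, 12964 of 53426. In the opposite direction, 7 of the 208 sites called in both TBX5 KO libraries were called in neither control library, that is TBX5 KO-only (3.37%), against 1.74% over all genes. With each library left out in turn the control-only share of the members was 30.6% and 35.2% (control replicate 1 and 2 out) and 25.5% and 33.0% (TBX5 KO replicate 1 and 2 out), below the 36.9%, 40.9%, 30.3% and 36.8% of all genes. Control-only sites outnumbered TBX5 KO-only sites at the members as they did over all genes. A further 93 and 53 sites were called in a single control library and 20 and 35 in a single TBX5 KO library.

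Itga9 and Itgb5 made up most of the gap to the share of all genes. Without Itga9, 58 of 276 sites (21.0%, interval 16.6% to 26.2%) were control-only. Without Itga9 and Itgb5, which was singled out after its values were seen, the count was 57 of 253 (22.5%, interval 17.8% to 28.1%). Both intervals hold the share of all genes. Laminin genes had 27 control-only sites of 114 (23.7%, interval 16.8% to 32.3%) and integrin genes 31 of 197 (15.7%, interval 11.3% to 21.5%), or 30 of 156 (19.2%) without Itga9. These shares moved with single libraries. Without control replicate 1 or 2 the laminin share was 32.7% or 44.6% and the integrin share 29.8% or 29.2%, against 36.9% or 40.9% over all genes. Without TBX5 KO replicate 1 or 2 the laminin share was 30.4% or 36.8% and the integrin share 22.8% or 30.8%, against 30.3% or 36.8%. With −log10 q of at least 5 the laminin share was 31.6%, against 27.1%. The laminin share was thus below that of all genes in some settings and above it in others. Among the 28 members with 4 or more sites in both control libraries, the median share per gene was 16.3% and 8 genes had no control-only site (28.6%). Over the 6452 genes with as many sites the median was 22.2% and 24.6% had none.

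**Figure D1:**
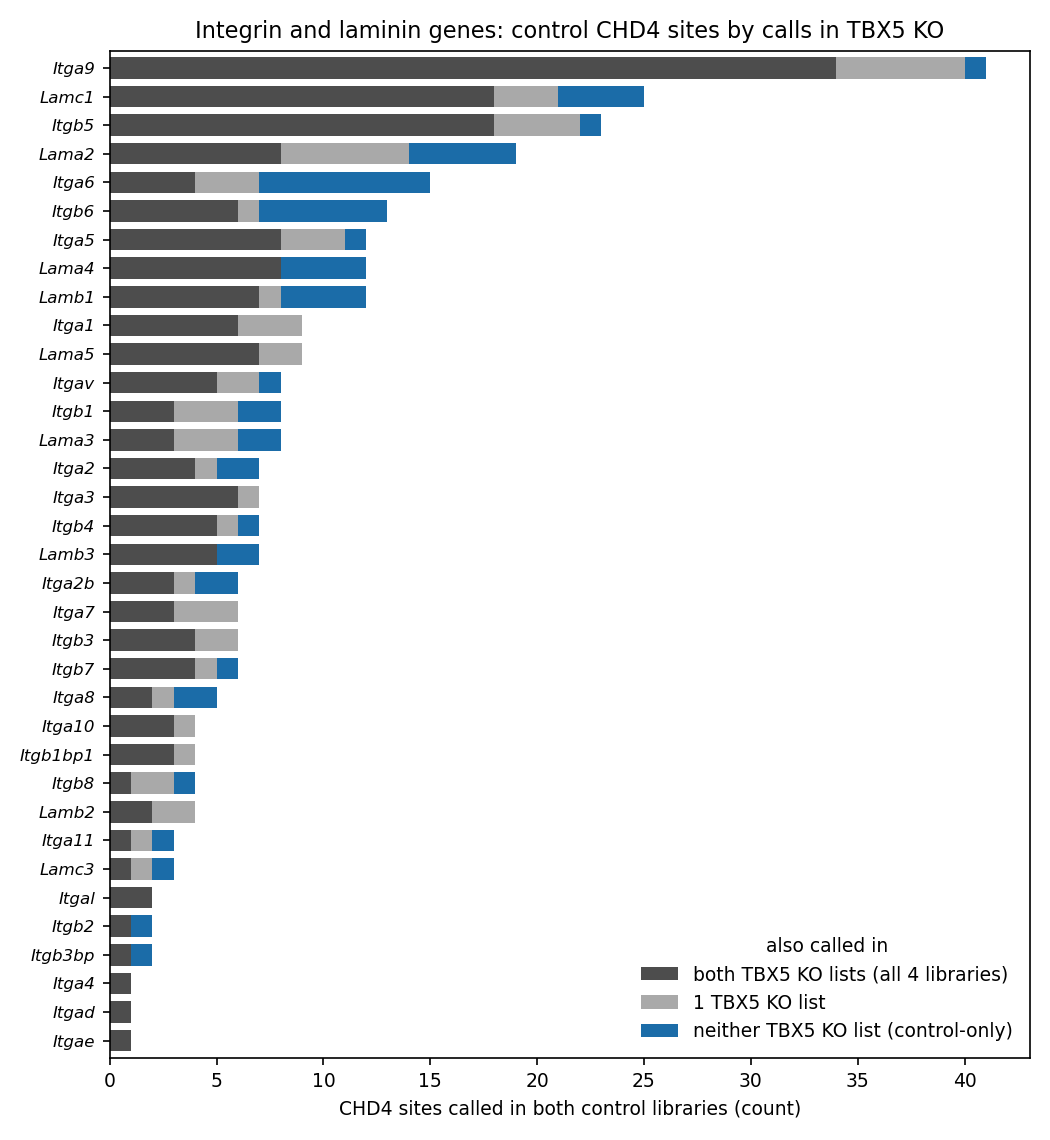
Bars give the number of CHD4 sites called in both control libraries at 35 of the members with any, split by how many TBX5 KO lists also held the site. The 34 sites of Itga9 called in all 4 libraries form the longest dark bar, while 8 of 15 sites of Itga6 and 6 of 13 of Itgb6 are control-only.

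Position and strength were then set against these shares. Inside gene bodies 51 of 234 sites of the members were control-only (21.8%), against 31.1% over all genes. Without Itga9 the count was 50 of 195 (25.6%), and without Itga9 and Itgb5 49 of 175 (28.0%). Within 1 kb of a gene end, own or neighbouring, the count was 3 of 58 (5.17%), against 7.22% over all genes. Outside genes it was 5 of 25, against 24.4% over all genes. Sites were ranked by their −log10 p within each control list and split into 3 equal classes of strength over all sites that both control libraries called. In the weakest class 43 of 115 sites of the members were control-only (37.4%, against 51.3% over all genes), in the middle class 16 of 108 (14.8%, against 19.5%) and in the strongest class 0 of 94, which allows a share of up to 3.19% (against 2.5%). Control-only sites of the members were thus all outside the strongest class. With Itga9 left out the shares of the weakest and middle classes were 42.4% and 17.0%.

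**Figure D2:**
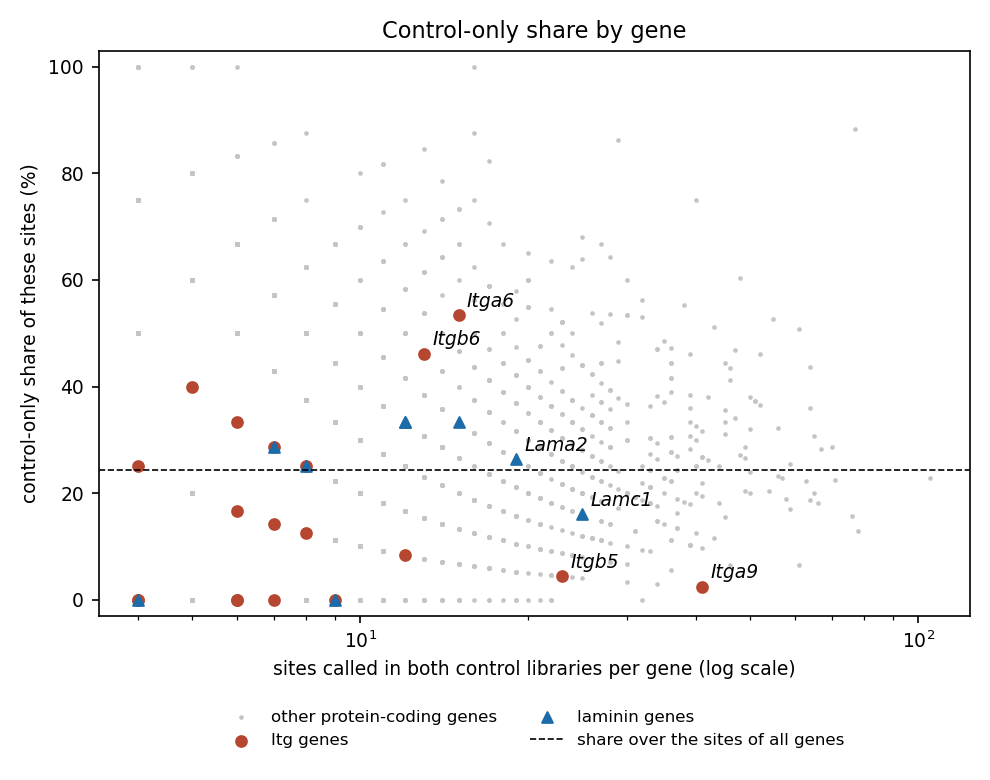
Each point is a protein-coding gene with 4 or more sites called in both control libraries, plotted by that number (x axis, log scale) and the percentage of them that were control-only (y axis); the dashed line is the 24.3% of all genes. Itga9 and Itgb5 lie near the bottom at 41 and 23 sites, Lamc1 and Lama2 near the line, and Itga6 and Itgb6 above it.

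Itga9 encodes the alpha9 chain, which pairs with beta1 and binds tenascin-C, osteopontin and VCAM-1. The gene spans 294 kb at chr9:118606709-118901003 and held 83 sites, none shared with another gene. Control libraries called 52 and 50 of them and TBX5 KO libraries 50 and 60. Of the 41 sites called in both control libraries, 1 was control-only (2.44%, interval 0.432% to 12.6%), 6 were called in 1 TBX5 KO library and 34 in all 4. Among the 410 genes with 20 or more sites in both control libraries, 5 had a lower control-only share, and the median of these genes was 26.1%. Only 7 of the 15392 genes with a site in both control libraries had more sites called in all 4, while 53 had more sites in both controls. With each library left out in turn the share at Itga9 was 14.8% and 15.4% (control replicate 1 and 2 out) and 7.32% and 18.6% (TBX5 KO replicate 1 and 2 out). Over all genes it was 36.9%, 40.9%, 30.3% and 36.8% in the same order. The sites called in all 4 libraries were spread over the gene, 12, 12 and 10 over 3 equal lengths of it.

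Itga9 was also the member with the most peaks, 55 and 56 in the control lists and 61 and 66 in the TBX5 KO lists. Each TBX5 KO list held more peaks there than each control list (55.5 ± 0.707 and 63.5 ± 3.54, SD, n = 2 each, exact permutation p = 0.333, two-sided). That p is the smallest that 2 against 2 libraries can give. The peaks covered 61.3 and 56.8 kb in control, against 47.7 and 59.1 kb in TBX5 KO, so the covered lengths overlapped between groups (exact permutation p = 0.667). The ratio of control to TBX5 KO peaks was 0.874, but 1.03 and 1.27 with −log10 q of at least 3 and 5 (exact permutation p = 1 and 0.667), and 0.592 in lists of equal length. The order of the groups at Itga9 thus changed with the threshold. Of the 31 sites called in a single library, 6 and 5 belonged to the control lists and 7 and 13 to the TBX5 KO lists.

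The strongest Itga9 site called in all 4 libraries, chr9:118735996-118742390 inside the gene, had folds of 9.65 and 6.59 in control, with 5.13 and 5.49 in TBX5 KO. Its control-only site, chr9:118662372-118662865, had folds of 2.60 and 2.81. The 2 TBX5 KO-only sites, chr9:118625031-118625454 and chr9:118767146-118768042, had folds of 2.31 and 2.22 and of 2.07 and 2.22. The sites that differed between groups at Itga9 were thus among its weak ones. The median rank of Itga9 sites in control was the 55.1 percentile, against 62.0 for sites of all genes. In the weakest class of control sites 1 of 16 at Itga9 was control-only, against 42.4% for the other members, in the middle class 0 of 14 and in the strongest 0 of 11.

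**Figure D3:**
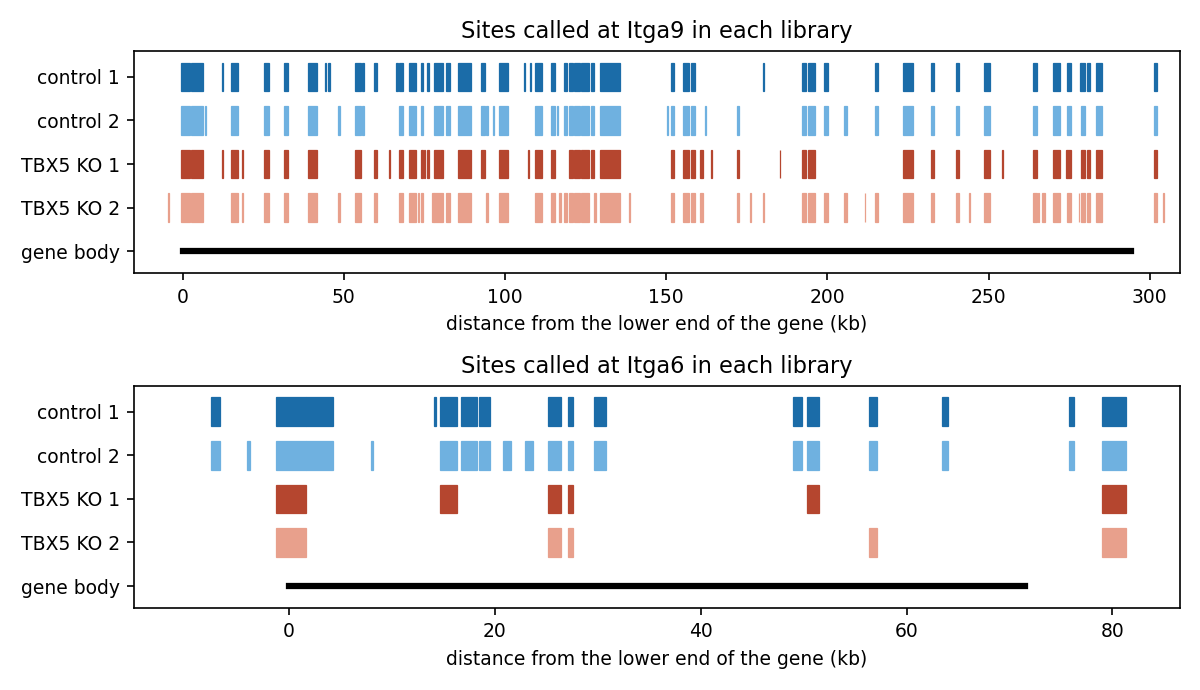
Rectangles mark the merged sites that each library called along Itga9 (upper panel) and Itga6 (lower panel), by distance in kb from the lower end of the gene, whose body is the black bar. Along Itga9, 34 of the 83 sites are in all 4 rows and 31 are in a single row, while most Itga6 sites are missing from both TBX5 KO rows.

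Among members with 20 or more sites in both control libraries, Itgb5 had the next lowest control-only share after Itga9. The gene encodes the beta5 chain, which pairs with alphav to bind vitronectin. It had 1 control-only site of 23 (4.35%), and 10 of the 410 genes with 20 or more sites had a lower share. Its peaks numbered 34 and 36 in control, against 35 and 36 in TBX5 KO, overlapping between groups (exact permutation p = 1). Of its 39 sites, 7 were shared with Muc13 or Umps.

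The laminin-binding integrin alpha chains differed among themselves. Itga6 encodes alpha6, the chain of a laminin receptor of epithelial, endothelial and blood cells, and had the most control-only sites of all members, 8 of 15 (53.3%). Its peaks numbered 17 and 20 in control, against 7 and 7 in TBX5 KO (18.5 ± 2.12 and 7 ± 0, SD, n = 2 each, exact permutation p = 0.333). The ratio of these means was 2.64, against 1.45 over the peaks of all genes. In lists of equal length 3 of 9 sites of Itga6 were control-only, against 13.5% over all genes. The strongest control-only site, chr2:71779355-71780219, lies outside the gene, 7.1 kb below its lower end, with folds of 4.50 and 3.94. At the lower end itself the site chr2:71785683-71788518 was called in all 4 libraries, with folds of 6.79 and 9.14 in control, with 4.71 and 2.85 in TBX5 KO. The other 2 chains had no control-only site: Itga3, which encodes alpha3, 0 of 7, and Itga7, which encodes the alpha7 chain of striated muscle, 0 of 6. These zeros changed with a library left out: Itga3 had 3 of 11 without either of the control replicates, and Itga7 had 3 of 6 without TBX5 KO replicate 2. A group of 1 library asks for fewer calls, and the share over all genes rose as well. It was 36.9% or 40.9% without control replicate 1 or 2, and 30.3% or 36.8% without TBX5 KO replicate 1 or 2. The counts of genes below with a library left out have the same comparison. Itga3 had 12 and 13 peaks in control, against 8 and 10 in TBX5 KO, a ratio of means of 1.39, against 1.45 over all genes. Itga7 had 7 and 8 peaks in control, against 5 and 13 in TBX5 KO, so its TBX5 KO libraries lay on both sides of the control libraries. The sites of Itga3 were shared with Pdk2 and Samd14 in 4 of 12 cases, and those of Itga7 with Bloc1s1, Cd63 and Rdh5 in 4 of 6.

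Collagen-binding alpha chains had 3 control-only sites of 23 (13.0%). Itga1, which encodes alpha1, had 0 of 9 and Itga2, which encodes alpha2, 2 of 7. At Itga1 the count was 5 of 15 or 4 of 15 without control replicate 1 or 2, 1 of 9 or 2 of 9 without TBX5 KO replicate 1 or 2, and 3 of 10 when each site went only to its nearest gene end. At Itga2 it was 4 of 11 without control replicate 1. Itga1 peaks numbered 15 and 15 in control, against 9 and 12 in TBX5 KO, and 1 of its sites, chr13:115085490-115086201, was TBX5 KO-only with folds of 2.42 and 2.14. Itga2 peaks numbered 9 and 11 in control, against 4 and 7 in TBX5 KO. At both genes each control library had more peaks than each TBX5 KO library (exact permutation p = 0.333 each), as over all genes. The ratio of the means was 1.43 at Itga1 and 1.82 at Itga2, against 1.45 over all genes. Itga10 had 0 control-only sites of 4 and Itga11 1 of 3.

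Alpha chains that bind the RGD motif of fibronectin, vitronectin and fibrinogen had 6 control-only sites of 31 (19.4%). These were 1 of 12 at Itga5, 2 of 5 at Itga8, 1 of 8 at Itgav and 2 of 6 at Itga2b. Itga4, whose chain is the closest relative of alpha9, had a single site in both control libraries, and it was called in all 4. The alpha chains of leukocyte integrins had few sites: Itgal 2, Itgad 1 and Itgae 1 in both control libraries, all called in all 4, and Itgax none. All 4 of these sites lay within 1 kb of a gene end, own or neighbouring. Of the sites in any library, 4 of 5 at Itgal were shared with Zfp768 and 3 of 3 at Itgad with Cox6a2. At Itgae 2 of 2 were shared with Haspin or Ncbp3. No site was called in any library at Itgam or Itgb2l.

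Integrin beta genes had 13 control-only sites of 69 (18.8%). Itgb6, whose chain pairs with alphav and activates latent TGF-beta in epithelia, had 6 of 13 (46.2%) and none of its sites was shared with another gene. Its peaks numbered 15 and 14 in control, against 7 and 7 in TBX5 KO (14.5 ± 0.707 and 7 ± 0, SD, n = 2 each, exact permutation p = 0.333). The ratio of these means was 2.07, against 1.45 over all genes. Its strongest control-only site, chr2:60636520-60637779 inside the gene, had folds of 4.61 and 3.71. In lists of equal length 4 of 10 sites of Itgb6 were control-only, against 13.5% over all genes. Itgb1, whose chain is the partner of most alpha chains of cardiomyocytes, had 2 control-only sites of 8, 3 sites in 1 TBX5 KO library and 3 in all 4. Without control replicate 1 or TBX5 KO replicate 2 its control-only count was 4 of 11 or 4 of 8. Its peaks numbered 10 and 12 in control, against 7 and 9 in TBX5 KO, with no overlap between groups. The ratio of the means was 1.38, against 1.45 over all genes. The site over its promoter, chr8:128684148-128688371, was the strongest of the gene. Itgb4, whose chain pairs with alpha6 in hemidesmosomes, had 1 of 7, and all 11 sites there were shared with neighbouring genes. Itgb3 had 0 of 6, Itgb7 1 of 6, Itgb8 1 of 4 and Itgb2 1 of 2.

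**Figure D4:**
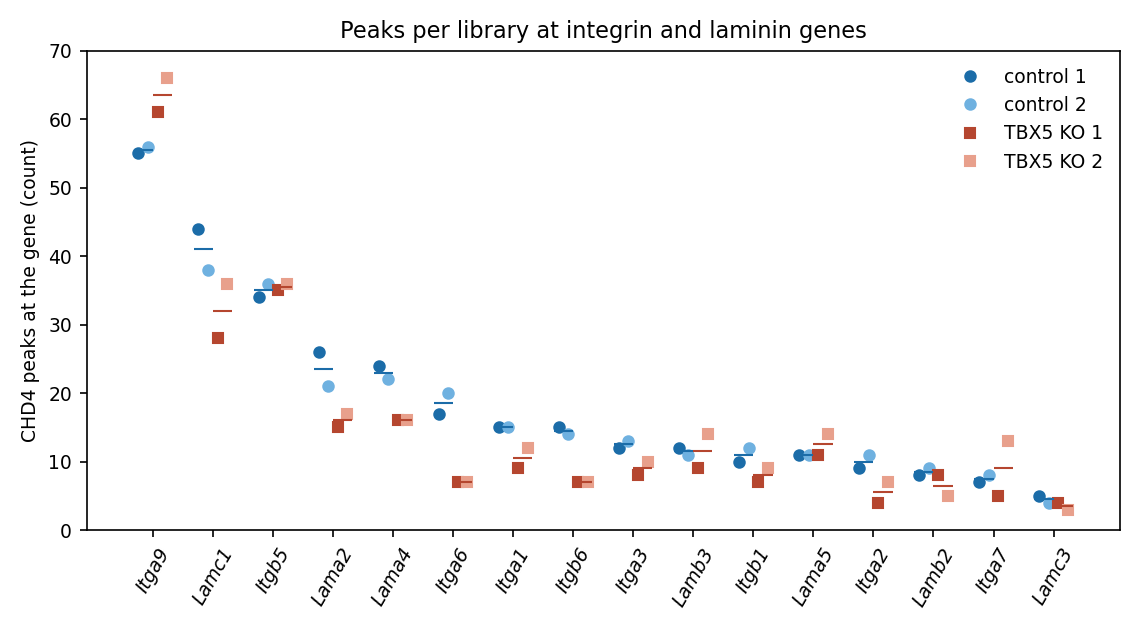
Points give the number of CHD4 peaks in each of the 4 libraries at the genes described, and short lines the mean of each group. TBX5 KO libraries lie above control libraries at Itga9, level with them at Itgb5 and below them at Itga6, Itgb6, Lama2 and Lama4. The ratio of control to TBX5 KO means is 2.64 at Itga6 and 2.07 at Itgb6. At Lama2 and Lama4 it is 1.47 and 1.44, near the 1.45 over all genes.

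Laminin alpha genes had 11 control-only sites of 48 (22.9%, interval 13.3% to 36.5%) and laminin beta genes 6 of 23 (26.1%, interval 12.5% to 46.5%). Each interval holds the other share. Peaks at laminin genes numbered 181 and 157 in control, against 114 and 138 in TBX5 KO (169 ± 17.0 and 126 ± 17.0, SD, n = 2 each, exact permutation p = 0.333). Their covered length was 207 and 166 kb in control, against 80.4 and 102 kb in TBX5 KO, a ratio of 2.04, against 1.74 over all genes. The ratio of peak numbers was 1.34, against 1.45.

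Among the alpha chains, Lama2 encodes alpha2, the laminin chain of the muscle basement membrane whose loss causes a congenital muscular dystrophy. It had 5 control-only sites of 19 (26.3%), 6 in 1 TBX5 KO library and 8 in all 4. Its peaks numbered 26 and 21 in control, against 15 and 17 in TBX5 KO, with no overlap between groups (exact permutation p = 0.333). The ratio of the means was 1.47, against 1.45 over all genes. Without control replicate 2 or TBX5 KO replicate 2 the count at Lama2 was 11 of 26 or 9 of 19. The strongest control-only site, chr10:27233202-27234196, had folds of 3.0 and 4.63, and 1 site, chr10:27133201-27133640, was TBX5 KO-only with folds of 2.66 and 2.98. Lama4 encodes alpha4, the chain of vascular and cardiac basement membranes, and had 4 control-only sites of 12 and 8 in all 4 libraries. Without control replicate 1 or 2 the count at Lama4 was 10 of 22 or 14 of 23. In lists of equal length it was 0 of 7, against 13.5% over all genes. Its peaks numbered 24 and 22 in control, against 16 and 16 in TBX5 KO, a ratio of means of 1.44, against 1.45 over all genes. Lama5, which encodes the alpha5 chain of mature vessels and epithelia, had 0 of 9 (2 of 11 without control replicate 2, and 1 of 9 with either TBX5 KO replicate left out), with 11 and 11 peaks in control, against 11 and 14 in TBX5 KO. A site inside it, chr2:180202944-180203667, was TBX5 KO-only with folds of 3.08 and 2.66. Lama3 had 2 control-only sites of 8. Lama1, the alpha chain of the early embryo, had 1 site in any library, called in control replicate 2 and both TBX5 KO libraries.

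Lamc1 encodes gamma1, the gamma chain of most laminins, and had the most sites of any laminin gene, 52 over 114 kb at chr1:153218922-153332786, none shared with another gene. Of 25 sites in both control libraries, 4 were control-only (16.0%) and 18 were called in all 4. Without control replicate 1 or 2 the control-only count was 13 of 35 or 19 of 43. In lists of equal length it was 0 of 17, against 13.5% over all genes. Its peaks numbered 44 and 38 in control, against 28 and 36 in TBX5 KO, and their covered length was 62.0 and 47.7 kb against 22.1 and 28.5 kb. Both measures were higher in each control library than in each TBX5 KO library (exact permutation p = 0.333), as over all genes. The ratio of the means was 1.28 for peaks, against 1.45 over all genes, and 2.17 for covered length, against 1.74. The strongest site, chr1:153331234-153335194 at the upper end of the gene, had folds of 16.9 and 12.3 in control, with 6.31 and 10.6 in TBX5 KO. Lamc3 had 1 of 3, and 1 TBX5 KO-only site, chr2:31904229-31904542, with folds of 2.22 and 2.08. With the gene body alone as window, or each site given only to its nearest gene end, Lamc3 had 0 sites in both control libraries. Of its 8 sites, 4 were shared with Aif1l.

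Among the beta chains, Lamb1 had 4 control-only sites of 12. Lamb2 encodes beta2, the chain of the neuromuscular junction and of mature heart muscle, and had 0 of 4 (2 of 8 or 3 of 8 without control replicate 1 or 2, and 1 of 4 with either TBX5 KO replicate left out), but all 8 of its sites also belonged to Qars or Usp19. Its strongest site, chr9:108489050-108494044, had folds of 17.4 and 16.4 in control, with 6.61 and 11.03 in TBX5 KO. Lamb3 had 2 of 7 (4 of 11 without control replicate 2), with 12 and 11 peaks in control, against 9 and 14 in TBX5 KO, and its TBX5 KO-only site, chr1:193311565-193311920, had folds of 2.40 and 2.71. All 7 TBX5 KO-only sites of the members lay inside a gene and had folds of 2.07 to 3.08.

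Peaks over all members numbered 475 and 441 in control, against 327 and 377 in TBX5 KO (458 ± 24.0 and 352 ± 35.4, SD, n = 2 each, exact permutation p = 0.333, two-sided). Each control library had more than each TBX5 KO library. The ratio of the means was 1.30, against 1.45 over all protein-coding genes, and 1.40 without Itga9. When the 4 lists were cut to equal length by their p, the ratio over the members was 0.868 and thus in the opposite direction. The order of the groups in peak number thus changed when the lists were cut. The ratio over all genes is not given for the cut lists, and the cause of the change was not tested.

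Signal was also compared within the sites called in all 4 libraries. The pileup of each site was taken over the genome background of its library and the TBX5 KO mean divided by the control mean, as an estimate. Over the sites of all protein-coding genes the median of this ratio was 0.643, and in 88.7% of them both TBX5 KO libraries were below both control libraries. At laminin genes the median was 0.639 over 64 sites, of which 62 (96.9%) had both TBX5 KO values below both control values. At integrin genes without Itga9 it was 0.701 over 92 sites, 75 of them (81.5%) with that order. At Itga9 the median was 0.795 over 34 sites, 21 of them (61.8%) with that order and 1 with the reverse. Of the 810 genes with 8 or more such sites, 50 had a higher median than Itga9, 86 a higher one than Itgb5 (0.765) and 108 a higher one than Lama2 (0.75). Itga5 (0.593), Lama4 (0.59) and Lamc1 (0.636) lay below the median of these genes, 0.66. CHD4 signal at the Itga9 sites was thus lower in TBX5 KO than in control at most sites, though by less than at the median gene. In the control libraries the median pileup of these sites was 4.35 and 4.14 times the background at Itga9 and 6.43 and 6.04 times over all genes, and whether the weaker signal moves the ratio was not tested. The median at Itga9 ranged from 0.771 to 0.848 over the 4 pairs of 1 TBX5 KO and 1 control library, and over all genes from 0.612 to 0.675.

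**Figure D5:**
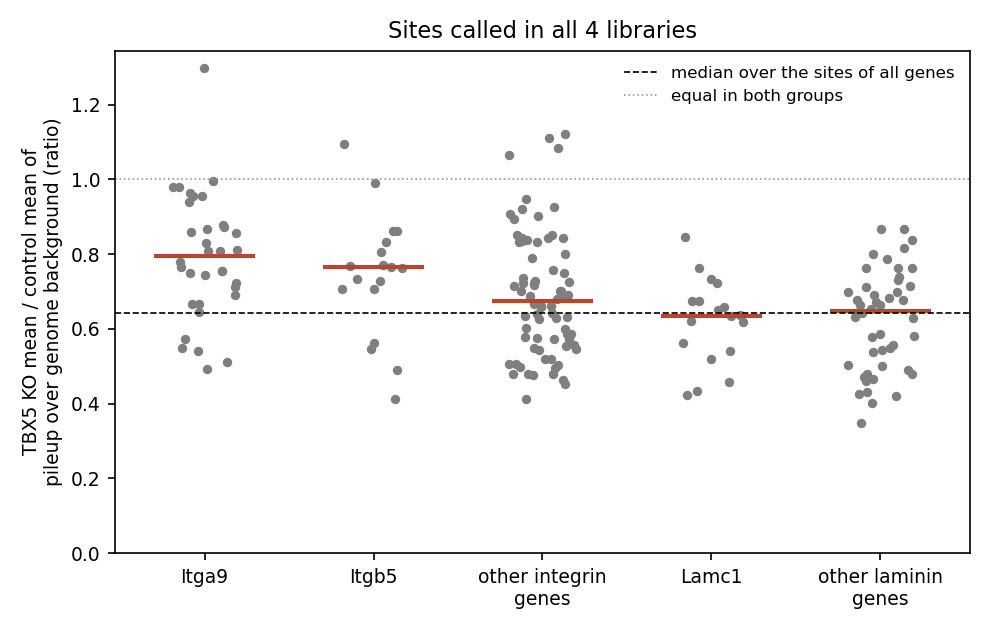
Each point is a site called in all 4 libraries, plotted by the ratio of the TBX5 KO mean to the control mean of its pileup over genome background, and red lines are medians. The medians are 0.795 at Itga9, 0.765 at Itgb5, 0.674 at the other integrin genes, 0.636 at Lamc1 and 0.648 at the other laminin genes, beside the dashed line at 0.643 for all genes.

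Genes that act with integrins and laminins were described from lists of adhesion proteins inside the cell, other matrix proteins and the dystroglycan complex. At the 26 adhesion genes 85 of 393 sites were control-only (21.6%), and 20 of the genes had 1 or more. Tln2, which encodes a talin of the muscle cell that links integrin beta chains to actin, had 11 of 28, and Vcl, which encodes vinculin, 6 of 17. Tns1 and Tns3, which encode tensins of fibrillar adhesions, had 2 of 36 and 2 of 30. At the 18 other matrix genes 26 of 167 sites were control-only (15.6%), with 1 or more at 9 genes. Col4a1 and Col4a2, which share a promoter and encode the collagen IV chains of the basement membrane, had 1 of 22 and 7 of 38, and Hspg2, which encodes perlecan, 6 of 16. At the 11 genes of the dystroglycan complex 31 of 119 were control-only (26.1%), with 1 or more at 9 genes. Dag1, which encodes dystroglycan, had 8 of 19, and Utrn, which encodes utrophin, 13 of 35. The 3 lists and the members thus ranged from 15.6% to 26.1%, around the 24.3% of all genes, and none of the lists was tested.

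Few sites of the members lay close to the 10 kb window edge on either side. Between 9 and 10 kb from a gene lay 10 sites of the members, 6 of them in both control lists, with 1 control-only and 4 present in all 4 libraries. Between 10 and 11 kb, just outside, lay 5 sites, and 1 of these was in both control lists and in all 4. Larger changes of the window moved more sites. The members had 317 sites in both control libraries, but 262 with the gene body alone and 520 with 50 kb on each side. Their control-only share stayed below that of all genes in both windows. With 50 kb the control-only count went from 0 of 9 to 4 of 19 at Lama5 and from 4 of 25 to 8 of 34 at Lamc1. At Itga9 and Lama2 it stayed at 1 and 5 in both windows. Of the 570 sites, 122 also belonged to other genes.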

How the data were processed

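CHD4 ChIP-seq peak lists of 2 control and 2 TBX5 KO libraries of mouse atria were analysed. Build mm10, MACS2 and DiffBind are named in the submitters' processing notes, with no version. Neither the aligner nor the caller's settings are given in the sources used here. Each list belongs to 1 library, so replicates were not pooled. For each peak the authors deposited a fold, which is the ratio of pileup to local background, and a −log10 p and −log10 q. The smallest −log10 q was 1.30 to 1.31 over the 4 lists. The deposited score was not used. Folds are printed for each list as its own values and were not tested between lists. Groups were compared by calls and, as an estimate, by pileup over background. A list with fewer or weaker peaks moves every count of sites called in 1 group only.

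Overlap of 1 bp or more joined peaks of the 4 lists into a site. Sites were assigned to each gene of the RefSeq table whose body plus 10 kb they overlapped. The table gives gene ends without exons. Pileup was solved from fold and −log10 p, taking p as a Poisson tail, and came out whole, within 0.05, in 100.0% of the solved peaks. Its genome background is the most common local background of a list. An exact permutation test over libraries, two-sided, was used for peak numbers. With 2 libraries per group its p cannot go below 0.333, and it measures only the spread between these libraries, which may be technical. Shares of sites were not tested. Wilson intervals are at 95%.

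Named genes were Itga9, the 4 integrin and 4 laminin genes with the most control-only sites, the 3 of each family with the lowest share among those with 4 or more sites, and every member with a TBX5 KO-only site. 1 gene that the rule takes is not reported here. The members and lists were chosen with earlier results of these data known. As alternatives, −log10 q was required to reach 3 or 5, lists were cut to equal length, merging asked for 50% overlap of the shorter peak or summits 250 bp apart at most, each library was left out, and same-numbered pairs and exchanged groups were used. Others were windows of 0 or 50 kb, the gene with the nearest end, no sites within 1 kb of a gene end, and members without Itgb1bp1 and Itgb3bp. Leaving out Itga9 and Itgb5 was chosen after seeing the data. Merging and the recovery of pileup were tested on simulated data. Analyses used Python 3.11.15 with numpy 2.4.6, pandas 2.3.3, scipy 1.17.1 and matplotlib 3.10.9.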

Additional observations from a re-analysis of the deposited data

How the results depend on the processing

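The control-only share of the members (18.6%) moved with the calls: 23.4% with −log10 q of at least 5 (27.1% over all genes), 10.4% in lists of equal length (13.5%), 3.37% with groups exchanged (1.74%) and 25.5% to 35.2% with each library left out in turn (30.3% to 40.9%). A group of 1 library asks for fewer calls by construction. The share was below that of all genes in each of these except with groups exchanged. TBX5 KO-only sites of the members were 7 of 208 (1.74% over all genes). With −log10 q of at least 3 and 5 they were 3 of 166 and 1 of 123 (1.32% and 0.864%). They were 14 of 196 in lists of equal length (5.61%) and 25 of 206 with summits within 250 bp (8.39%). With groups exchanged the count was 59 of 317 (24.3%). Without control replicate 1 and 2 it was 14 of 218 and 11 of 212 (4.85% and 3.2%). Without TBX5 KO replicate 1 and 2 it was 44 of 314 and 29 of 264 (11.5% and 9.31%). The share over all genes thus moved in the same settings. The control-only share at Itga9 (2.44%) was 0 of 27 in lists of equal length (13.5% over all genes). With summits within 250 bp it was 17.1% (26% over all genes). It was 14.8% and 15.4% without control replicate 1 and 2, and 7.32% and 18.6% without TBX5 KO replicate 1 and 2 (30.3% to 40.9% over all genes). The ratio of control to TBX5 KO peaks (1.30) was 0.868 in lists of equal length and 0.769 with groups exchanged. At Itga9 it was 0.874, but 1.03 and 1.27 with −log10 q of at least 3 and 5 and 1.14 with groups exchanged, and 0.592 in lists of equal length. With groups exchanged the pileup ratios became 1.26 at Itga9, 1.43 at the other integrin genes and 1.56 at laminin genes. Among further values of single genes and families, 185 were classed as unchanged, 98 as moved and 6, given above, as changed in direction. Unchanged meant within the Wilson interval for a share and within 1.5 times for a count. For a pileup ratio it meant within a small fixed margin, and for a ratio of peaks only the same side of 1. The ratios that changed direction with groups exchanged are inverses of the main values by construction. The cause of the other shifts was not tested.

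Log2 ratios between replicates of the 2 groups had a correlation of -0.015 over 37954 sites called in all 4 libraries. That value shows no pairing by replicate number at these sites, but a shared batch cannot be judged from it. With same-numbered pairs as replicate block the control-only share was 43.4% (47.9% over all genes), since each pair asks for 1 library per group, and the ratio of peaks was 1.30 (exact sign-flip p = 0.5, the smallest that 2 pairs can give). Peak lists without read totals limit what a site not called can show.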
